A study of Mus musculus with 20 samples.

Results

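Lesser-known genes with lower levels in galunisertib-treated tumours are described here: Fam20a, Spsb4, Olfml3, Nrep and Ncam1. These 5 genes, of 17097 with a named probe set, were picked by the treated-minus-control difference within organoid lines and by their correlation with the collagen gene Col1a1 over 20 tumours. The treatment difference and the Col1a1 correlation are therefore given as descriptions, with no test. All 5 were among the 15556 genes above the filter on dim values, and each was above the floor of 4.16 on the log2 scale on 20 of 20 arrays.

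The study measured gene expression in 20 tumours of the mouse caecum, 1 array per tumour, to ask what galunisertib, a drug that blocks the kinase of the type I TGF-beta receptor, does to tumours grown from organoid (MTO) lines. Treated C57BL/6J mice received 10 mg of galunisertib by gavage 2 times a day from day 11 until sacrifice at 5 weeks. Control mice carried the same lines, and how they were dosed is not given in the labels. Each of 5 lines gave 2 treated and 2 control tumours. MTO140 was an LAKTP line of type LiM, MTO54 a parental LAKP line and MTO207 a parental LAKT line, while MTO68 and MTO93 were the parental LAKTP lines; the labels do not spell out these letters. MTO140 was injected as spheroids below the serosa of the caecum, whereas the parental lines were transplanted as 1 mm3 pieces of subcutaneous tumours, so the LiM type cannot be told apart from the way of implanting. A strip of arrays held 1 line, and neither can line and strip be told apart. RNA came from whole tumour fragments, in which fewer cells of a type and less RNA per cell cannot be told apart.

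TGF-beta binds a pair of receptor kinases at the cell surface and signals through SMAD proteins to the nucleus, where it raises transcription of matrix genes in fibroblasts. Fibroblasts, smooth muscle cells and pericytes are among the cells that answer in this way. The genes described here are not the usual readouts of the pathway and have roles in protein secretion, ubiquitin transfer, the extracellular space, translation and cell adhesion.

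The levels are log2 RMA values, in which 1 unit is a 2-fold difference, and they are compared between tumours for the same probe set. Array medians lay between 4.93 and 5.12, and array SDs between 1.46 and 1.83. Of the tissue markers, 10 of 10 epithelial markers and 11 of 11 measured matrix genes were above the filter, while the fibroblast marker Pdgfra was below it. Of all 17097 genes 15556 were above it, so passing the filter does not identify the tissue. MTO68 control replicate 2 stood apart from its line, with an array SD of 1.47 against 1.76 to 1.82 in the other MTO68 arrays. Its matrix score, the mean of centred matrix genes, lay within the range of the 10 treated tumours (-1.09 to 0.20) and below the other 9 control tumours (-0.05 to 1.23). Over 5 lines the treated-minus-control differences without it were -0.48 for Fam20a, -0.53 for Spsb4, -1.06 for Olfml3, -0.99 for Nrep and -1.16 for Ncam1.

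No promoter sequence was taken for Nrep and Ncam1. For the other 3 of the 5 genes, Fam20a, Spsb4 and Olfml3, promoter sequences came from the RefSeq table of build GRCm38.p6. They are shown because these genes were lower in the same tumours when a receptor that signals through SMAD proteins was inhibited. Each runs from 250 bases before to 50 bases after the start site, and capitals mark GTCT, the core of the SMAD box, on either strand. The windows are chr11:109722189-109722488 for Fam20a, chr9:97018306-97018605 for Spsb4 and chr3:103737952-103738251 for Olfml3, each on the minus strand.
Fam20a: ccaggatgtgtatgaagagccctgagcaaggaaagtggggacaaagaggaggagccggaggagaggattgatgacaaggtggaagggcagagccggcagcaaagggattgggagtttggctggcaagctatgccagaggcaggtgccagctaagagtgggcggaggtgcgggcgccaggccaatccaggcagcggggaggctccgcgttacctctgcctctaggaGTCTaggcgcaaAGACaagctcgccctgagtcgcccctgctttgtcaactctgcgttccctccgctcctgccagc
Spsb4: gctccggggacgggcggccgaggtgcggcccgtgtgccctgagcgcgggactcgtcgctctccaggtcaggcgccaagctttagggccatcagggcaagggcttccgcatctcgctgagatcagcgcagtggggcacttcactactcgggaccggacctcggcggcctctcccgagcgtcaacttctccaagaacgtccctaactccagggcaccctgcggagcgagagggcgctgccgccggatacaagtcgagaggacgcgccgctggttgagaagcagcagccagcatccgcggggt
Olfml3: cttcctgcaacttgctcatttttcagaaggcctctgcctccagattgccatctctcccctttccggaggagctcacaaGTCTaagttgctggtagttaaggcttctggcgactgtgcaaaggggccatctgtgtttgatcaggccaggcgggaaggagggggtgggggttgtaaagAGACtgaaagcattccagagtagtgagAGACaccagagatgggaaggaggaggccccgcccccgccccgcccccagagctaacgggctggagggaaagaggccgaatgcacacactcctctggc

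The GTCT core matched 2 times in the Fam20a window, 0 times in the Spsb4 window and 3 times in the Olfml3 window, counting both strands. It is short and common, and 88.0% of 32851 promoters of the same length held it, with a median of 2 matches. The longer SMAD-type motif CAGAC matched in none of the 3 windows and in 49.6% of all promoters. GGCGCC, the GC-rich SMAD motif, matched 1 time each in Fam20a and Spsb4 and not in Olfml3, against 11.9% of all promoters. CATTCC, the TEAD motif, matched 1 time in Olfml3 (14.7% of all promoters), and the GC box GGGCGG matched 1, 1 and 3 times in Fam20a, Spsb4 and Olfml3 (35.7%). The AP-1 motif TGANTCA (7.81%) and the TATA box TATAAA (13.6%) matched in none. The motifs were chosen with the sequences at hand, matches were counted on both strands, and a match is a stretch of letters and not a measured site.

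In all 5 lines the mean level of Fam20a, Spsb4, Olfml3 and Ncam1 was lower in treated than in control tumours, and that of Nrep was lower in 4 of 5 lines. The differences over the lines were between -0.49 for Fam20a and -1.10 for Ncam1 on the log2 scale, that is 1.41-fold to 2.14-fold lower. In the fit over 5 lines, 0 of 15556 genes were called lower at an adjusted p under 0.05 (limma with Benjamini-Hochberg adjustment, 0%), 1238 had an unadjusted p under 0.05 in either direction, and the median difference of all genes was 0.00. After quantile normalization of the deposited values 55 genes were called in either direction, and with array weights 116. Counted by separation, 3 of the 5 genes had both treated tumours below both control tumours in 5 of 5 lines, as had 0.122% of all genes. With Nrep 4 of the 5 reached this in at least 4 lines (0.874% of all genes), and with Olfml3 all 5 reached it in at least 3 lines (5.34%). The genes were chosen for this pattern, so the shares describe the choice.

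**Figure D1:**
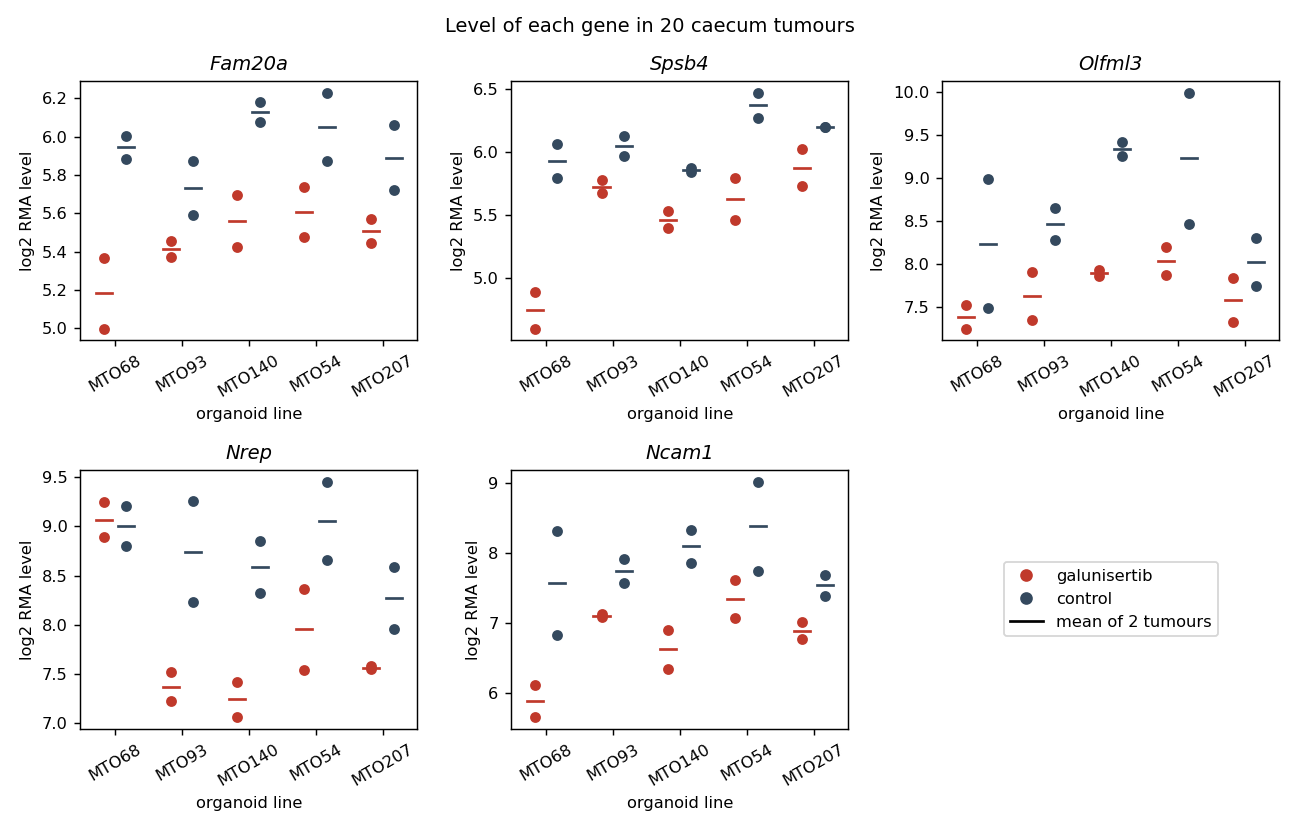
Log2 RMA level (vertical axis) of each gene in the 2 galunisertib-treated (red, left) and 2 control tumours (dark, right) of each organoid line; short bars are means of 2 tumours. Spsb4 and Ncam1 are lowest in the treated tumours of MTO68, while Nrep in the treated tumours of MTO68 (9.25 and 8.89) is as high as in its controls.

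Fam20a encodes a pseudokinase of the secretory pathway that binds and activates the Golgi kinase Fam20c and is known for its need in tooth enamel. Its level in treated tumours had a minimum of 5.00, a median of 5.45 and a maximum of 5.74, against 5.59, 5.95 and 6.23 in control tumours. The arms overlapped over all lines, but within each line both treated tumours were below both controls. The means were 5.45 ± 0.20 in treated and 5.95 ± 0.20 in control tumours (SD, n = 10 each), a difference of -0.49 (SE 0.08). MTO68 had the largest difference, -0.76, with 5.00 and 5.37 in treated against 6.01 and 5.88 in control tumours, and MTO93 the smallest, -0.32, with 5.37 and 5.46 against 5.87 and 5.59. The differences of MTO140, MTO54 and MTO207 lay between them at -0.57, -0.44 and -0.38. Fam20a thus had the smallest spread between lines of the 5 genes (SD of the 5 differences 0.18).

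Spsb4 encodes a SPRY and SOCS box protein, the part of a cullin-5 ubiquitin ligase that binds the substrate. It had a minimum of 4.60, a median of 5.60 and a maximum of 6.02 in treated tumours, against 5.80, 6.10 and 6.47 in control tumours. The means were 5.49 ± 0.44 and 6.08 ± 0.21 (SD, n = 10 each), a difference of -0.59 (SE 0.10), and within each line both treated tumours were below both controls. MTO68 stood apart, with 4.60 and 4.89 in treated against 5.80 and 6.06 in control tumours, a difference of -1.18. MTO54 followed at -0.74, with 5.46 and 5.79 against 6.27 and 6.47. MTO140, MTO207 and MTO93 differed by -0.40, -0.32 and -0.32. Its second probe set was lower as well in 5 of 5 lines, with means of 4.50 ± 0.18 in treated and 4.83 ± 0.16 in control tumours and a difference of -0.32, and it was above the floor on 19 of 20 arrays.

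Olfml3 encodes a secreted glycoprotein with an olfactomedin domain, known in tumours from endothelial cells and pericytes. Its level had a minimum of 7.25, a median of 7.85 and a maximum of 8.20 in treated tumours, against 7.49, 8.56 and 9.99 in control tumours. The means were 7.71 ± 0.32 in treated and 8.66 ± 0.77 in control tumours (SD, n = 10 each), a difference of -0.95 (SE 0.21). Control tumours spread more than treated ones. MTO140 had 7.94 and 7.87 in treated against 9.42 and 9.25 in control tumours (-1.43), and MTO54 had 7.87 and 8.20 against 9.99 and 8.47 (-1.19). In MTO93 the values were 7.35 and 7.91 in treated against 8.65 and 8.28 in control tumours (-0.83). The arms overlapped in the other two lines: MTO207 had 7.84 and 7.32 against 8.30 and 7.75 (-0.44), and MTO68 had 7.25 and 7.52 against 8.98 and 7.49 (-0.85). In MTO68 the second control was the tumour that stood apart, and without it the difference in that line was -1.60 and that over 5 lines -1.06.

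Nrep, also called P311, encodes a small protein that binds the translation factor subunit Eif3b and raises translation of TGF-beta messages, and it is known from myofibroblasts and regenerating nerves. It had a minimum of 7.06, a median of 7.55 and a maximum of 9.25 in treated tumours, against 7.96, 8.73 and 9.45 in control tumours. The means were 7.84 ± 0.73 and 8.73 ± 0.48 (SD, n = 10 each), a difference of -0.89 (SE 0.20). The spread between lines was the widest of the 5 genes (SD of the differences 0.60). MTO93 had 7.52 and 7.22 in treated against 9.25 and 8.23 in control tumours (-1.37), and MTO140 had 7.06 and 7.42 against 8.85 and 8.32 (-1.34). MTO54 and MTO207 differed by -1.10 and -0.71, each with both treated tumours below both controls. MTO68 did not share the pattern, with 9.25 and 8.89 in treated against 9.21 and 8.80 in control tumours, a difference of 0.06. Without the second MTO68 control this was -0.14, after quantile normalization of the deposited values it was -0.46, and without the line the difference over the other 4 lines was -1.13.

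Ncam1 encodes the neural cell adhesion molecule, an immunoglobulin-family protein of nerve and muscle cells that binds itself and the receptor Fgfr1. By the size of the fall over lines, for which the genes were chosen, Fam20a ranked 143, Spsb4 99, Nrep 26 and Olfml3 19 of 15556. Ncam1 ranked 8 with the probe set used and showed the largest difference of the 5 genes. Its level had a minimum of 5.65, a median of 6.96 and a maximum of 7.62 in treated tumours, against 6.84, 7.80 and 9.02 in control tumours. The means were 6.77 ± 0.57 and 7.87 ± 0.59 (SD, n = 10 each), a difference of -1.10 (SE 0.21), and both treated tumours were below both controls in every line. MTO68 had 5.65 and 6.12 in treated against 8.31 and 6.84 in control tumours (-1.69; -2.43 without the second control). MTO140 had 6.34 and 6.90 against 7.86 and 8.34 (-1.47), and MTO54 had 7.08 and 7.62 against 9.02 and 7.74 (-1.04). The differences were smaller in MTO207, with 7.01 and 6.77 against 7.69 and 7.39 (-0.65), and in MTO93, with 7.13 and 7.09 against 7.58 and 7.92 (-0.64).

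**Figure D2:**
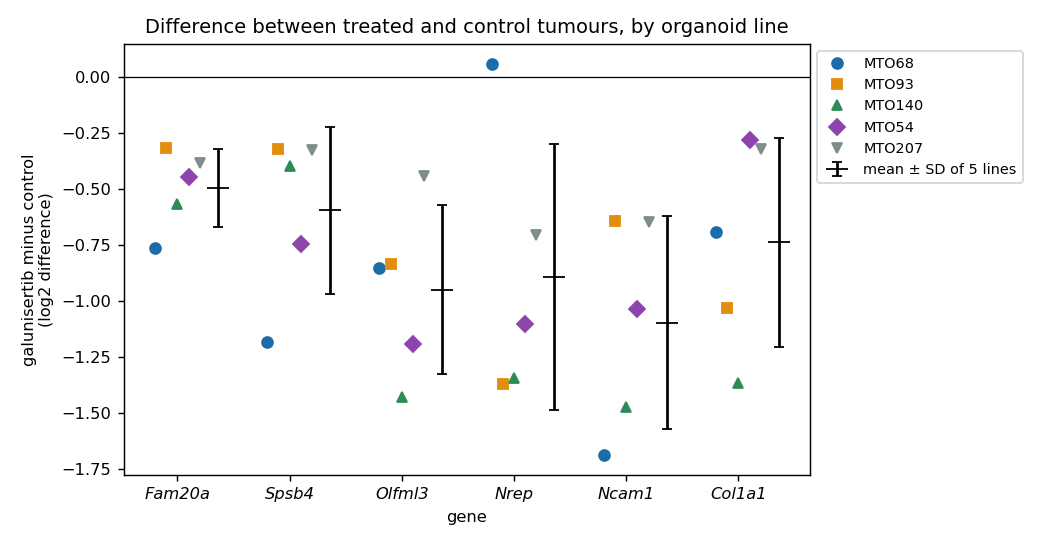
Difference of means (galunisertib minus control, log2, vertical axis) for each gene and for Col1a1 in each organoid line, with the mean and SD of the 5 line differences. All line differences lie below 0 except that of Nrep in MTO68 at 0.06.

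Ncam1 was the gene with the most probe sets, 6, and they did not give the same size of difference. Beside the one used, 1426864_PM_a_at, probe set 1426865_PM_a_at differed by -1.02, with means of 4.06 ± 0.34 in treated and 5.08 ± 0.88 in control tumours, but it was above the floor on 13 of 20 arrays. Probe set 1450437_PM_a_at, above the floor on 20 arrays, differed by -0.51 (4.74 ± 0.21 against 5.25 ± 0.35). Probe set 1450438_PM_at, also above the floor on 20 arrays, differed by -0.28 (6.14 ± 0.37 against 6.42 ± 0.29), and both treated tumours were below both controls in 2 of 5 lines. Its treated tumours were low in MTO68, at 5.45 and 5.59 against 6.22 and 6.50 in controls, while in MTO54 the values were 6.41 and 6.34 against 6.39 and 6.51. The remaining probe sets, 1425126_PM_at and 1421966_PM_at, were above the floor on 4 and 0 arrays and differed by -0.14 and -0.08, so they carry little signal. With the mean of all 6 probe sets the difference over 5 lines was -0.52. The transcripts that each probe set reads are not annotated in the sources used here.

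**Figure D3:**
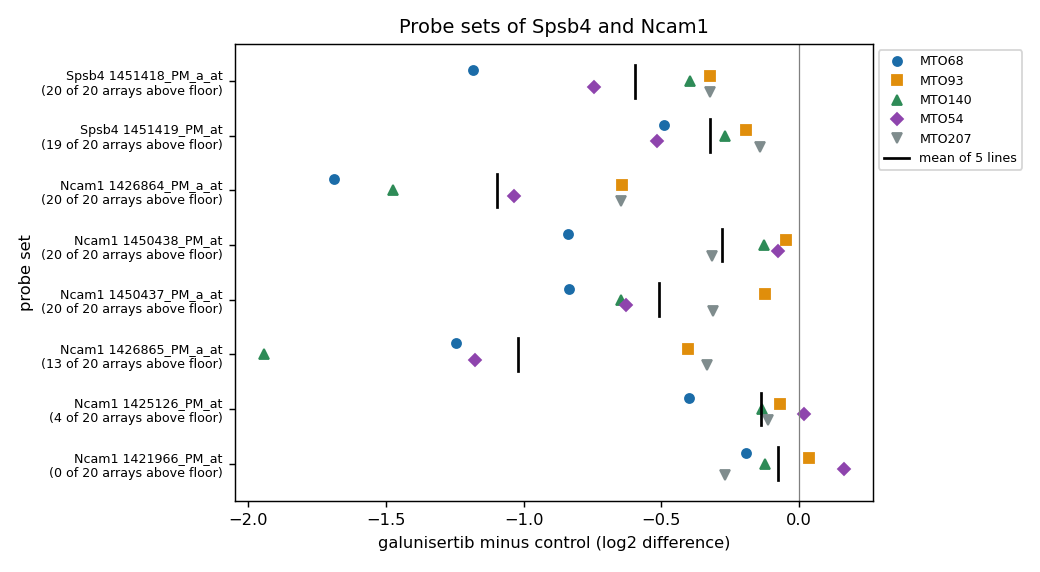
Difference of means (galunisertib minus control, log2, horizontal axis) for the 2 probe sets of Spsb4 and the 6 of Ncam1, with 1 symbol per organoid line and a bar at the mean of 5 lines. The Ncam1 probe sets run from -1.10 to -0.08, and those above the floor on few arrays lie nearest 0.

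Across the 20 tumours, treatment carried a larger share of each gene's variation than it did for most genes, as the choice of the genes would have it. It took 62.4% of the sum of squares for Fam20a, 49.5% for Ncam1, 45.4% for Spsb4, 42.1% for Olfml3 and 36.5% for Nrep, with a median of 2.52% over all genes tested. Differences between lines took 34.6% for Spsb4, 34.3% for Nrep, 25.8% for Olfml3, 22.0% for Ncam1 and 14.7% for Fam20a, below the median of 49.3% over all genes in each case. The shares of a gene add up to its whole variation, so a large treatment share leaves less for the others. Shares below these medians therefore follow in part from the choice and do not show that the genes varied less between lines. The part in which the treatment difference varied between lines was 14.3% for Spsb4 and 13.0% for Nrep, and 7.44%, 6.27% and 5.33% for Ncam1, Fam20a and Olfml3, against a median of 15.4%. Replicate tumours of a group differed least for Spsb4 (5.73% within groups) and most for Olfml3 (26.8%), against a median of 28.8%.

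The level of a gene in a line, averaged over treated and control tumours, is not itself the difference between arms, so it was tested between lines. Independence from the rule is not full, since a larger fall in 1 line lowers the mean of that line. The correlation with Col1a1 also depends on line levels, and genes of small spread were favoured. Over the 5 lines, Spsb4 (adjusted p = 0.00291) and Nrep (adjusted p = 0.0141) differed by limma's F test, while Ncam1 (0.0688), Olfml3 (0.0819) and Fam20a (0.185) did not pass. This was 2 of 5 genes, against 55.4% of all genes, so line differences were no more frequent than in the background. The call of Nrep was lost with array weights (0.062) and without MTO68 galunisertib replicate 1. In control tumours alone neither gene passed (0.416 for Spsb4 and 0.586 for Nrep). Only 27 of all genes passed in that smaller fit, and levels within 1 arm hold the difference used in the choice. It therefore cannot decide whether the lines differed.

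Spsb4 was highest in MTO207 at 6.04 ± 0.22 (SD, n = 4 tumours) and MTO54 at 6.00 ± 0.46, followed by MTO93 at 5.89 ± 0.20, MTO140 at 5.66 ± 0.24 and MTO68 at 5.34 ± 0.70. Neighbours in this order lay within their spread. MTO207 exceeded the mean of the parental LAKTP lines, 5.61, by 0.43 (SE 0.10, limma adjusted p = 0.0297), and MTO54 exceeded it by 0.39 (SE 0.10, adjusted p = 0.0442). MTO68 was below MTO93 by a difference of -0.55 (SE 0.12, adjusted p = 0.00595), whereas MTO140 differed from the parental lines by 0.05 (SE 0.10, adjusted p = 0.749). Of all genes, 7.93% were called for MTO207, 5.84% for MTO54, 13.5% for MTO140 and 33.4% for MTO68 against MTO93. The difference between MTO68 and MTO93 passed without each of the 20 arrays in turn, that of MTO207 in 11 and that of MTO54 in 6 of 20 such fits. The adjusted p was highest, at 0.14 for MTO207 and 0.298 for MTO54, without MTO207 galunisertib replicate 1 and MTO54 galunisertib replicate 2. The call for MTO54 was also lost with array weights (0.0849), after quantile normalization (0.0591) and with no filter on dim genes.

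The low values of Spsb4 in MTO68 were those of its treated tumours. The line difference of MTO68 from MTO93 is therefore not independent of the fall by which Spsb4 was picked. Fits without 1 array do not remove this dependence. Levels within 1 arm hold the difference by which the genes were picked, so the differences that follow are given as values with no test. Among treated tumours MTO68 differed from MTO93 by -0.98, with means of 4.74 and 5.73, and among control tumours by -0.12, with means of 5.93 and 6.05. Likewise MTO207 differed from the parental lines by 0.64 among treated tumours and by 0.21 among control tumours.

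Nrep was highest in MTO68 at 9.03 ± 0.23 (SD, n = 4), then MTO54 at 8.50 ± 0.79, MTO93 at 8.06 ± 0.90, MTO207 at 7.92 ± 0.48 and MTO140 at 7.92 ± 0.82. MTO68 exceeded MTO93 by 0.98 (SE 0.27, limma adjusted p = 0.0178), and neighbours in the order lay within their spread. The excess was again in the treated tumours, with means of 9.07 in MTO68 and 7.37 in MTO93 (1.69), while the control tumours had 9.21 and 8.80 in MTO68 and 9.25 and 8.23 in MTO93 (0.26). MTO140 differed from the parental lines by -0.63 over both arms (SE 0.24, limma adjusted p = 0.0911). MTO207 differed by -0.63 (SE 0.24, adjusted p = 0.0889) and MTO54 by -0.04 (SE 0.24, adjusted p = 0.974). The difference between MTO68 and MTO93 lost its call with array weights (adjusted p = 0.0692), after quantile normalization (0.60, adjusted p = 0.0594) and in 4 of 20 fits without 1 array. Those were the fits without MTO68 control replicate 1 (0.0669), MTO68 galunisertib replicate 1 (0.0657), MTO93 control replicate 2 (0.0919) and MTO93 galunisertib replicate 2 (0.0632).

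Line levels of the other three genes did not pass. Ncam1 ran in the order MTO54 (7.87 ± 0.82), MTO93 (7.43 ± 0.40), MTO140 (7.36 ± 0.90), MTO207 (7.22 ± 0.41) and MTO68 (6.73 ± 1.16; SD, n = 4 each). Its difference between MTO54 and the parental lines was 0.79 (SE 0.28, limma adjusted p = 0.13), and MTO68 differed from MTO93 by -0.70 (SE 0.32, adjusted p = 0.101). These differences were 0.85 and -1.22 among treated tumours and 0.72 and -0.17 among control tumours. Olfml3 was at 8.63 ± 0.93 in MTO54 and 8.62 ± 0.83 in MTO140, against 8.05 ± 0.55 in MTO93, 7.81 ± 0.79 in MTO68 and 7.80 ± 0.40 in MTO207. MTO54 and MTO140 exceeded the parental lines by 0.70 and 0.69 (SE 0.29 each), with limma adjusted p = 0.215 and 0.129. Fam20a lay within 0.28 over all 5 lines, from 5.84 in MTO140 to 5.56 in MTO68, and its largest difference was 0.28 (SE 0.12, adjusted p = 0.123) for MTO140.

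Genes related to each of the 5 were counted over treatment, where 0 genes of any list passed and differences are given as values. Among other secretory pathway kinases 7 of 8 tested had lower means in treated tumours, with a median difference of -0.08. Gask1b was at 4.61 ± 0.25 in treated and 4.96 ± 0.23 in control tumours, and Fam20c, the partner of Fam20a, differed by -0.14 (SE 0.09). In a list of 7 SPRY-SOCS box ligase genes and the substrate genes Nos2 and Pawr, 3 of 9 were lower, with a median of 0.04. Spsb1, a close relative of Spsb4, differed by -0.86 (SE 0.21, limma adjusted p = 0.208) with means of 8.28 ± 0.84 and 9.14 ± 0.53, while Spsb2 and Spsb3 differed by -0.02 (SE 0.06) and 0.04 (SE 0.07). The ligase scaffold Cul5 differed by -0.05 (SE 0.07). Spsb1 was chosen for mention by its small p within the list.

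Of the olfactomedin family and its latrophilin receptors 7 of 8 were lower, with a median of -0.20. Olfml2b, a matrix-binding relative of Olfml3, was at 6.95 ± 0.47 in treated and 7.39 ± 0.29 in control tumours (-0.44, SE 0.13), and Olfm1 differed by -0.32 (SE 0.12). In a list of 7 TGF-beta ligand and receptor genes and Eif3b, the translation factor subunit that Nrep binds, 6 of 8 were lower, with a median of -0.22. The ligand gene Tgfb3 differed by -0.72 (SE 0.23) and the co-receptor gene Eng by -0.25 (SE 0.09), while Eif3b differed by 0.24 (SE 0.14). Of the partners and relatives of Ncam1 7 of 11 were lower, with a median of -0.04. Fgfr1, the receptor that Ncam1 binds, was at 7.32 ± 0.66 in treated and 8.23 ± 0.75 in control tumours (-0.91, SE 0.25, limma adjusted p = 0.263), and the polysialic acid enzymes St8sia2 and St8sia4 differed by -0.05 (SE 0.08) and 0.03 (SE 0.21).

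Between lines some related genes passed, and the share of all genes called is given beside each comparison. In MTO54 against the parental LAKTP lines (5.84% of all genes called) Spsb1 was higher by 1.34 (SE 0.27, limma adjusted p = 0.00941), Tgfb1 by 1.24 (SE 0.24, adjusted p = 0.0082) and Olfml2b by 0.70 (SE 0.16, adjusted p = 0.0184). In MTO207 (7.93%) the adhesion gene Chl1 was higher by 0.61 (SE 0.09, adjusted p = 0.00341), and Eif3b was lower, at -0.69 (SE 0.19, adjusted p = 0.042). In MTO140 (13.5%) the adhesion gene L1cam was higher by 1.20 (SE 0.27, adjusted p = 0.0122), while Nfasc differed by -0.71 (SE 0.16, adjusted p = 0.00999). Counted over the list, MTO68 against MTO93 had 2 of 11 Ncam1 partners and relatives higher and 4 lower, where 33.4% of all genes were called.

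Most stroma markers also had lower means in treated tumours, with none past the test. Of matrix genes 11 of 11 were lower in treated tumours with a median of -0.81, the mean level of the list being 8.15 to 9.44 in treated and 8.24 to 10.5 in control tumours. Of fibroblast markers 12 of 13 were lower (median -0.64, mean level 5.79 to 6.57 against 5.99 to 7.38), of smooth muscle markers 9 of 9 (median -0.43, 6.32 to 8.27 against 6.70 to 8.28), of pericyte markers 5 of 5 (median -0.29, 4.90 to 5.62 against 4.97 to 6.07) and of endothelial markers 9 of 10 (median -0.17, 5.43 to 6.16 against 5.46 to 6.75). Epithelial markers were lower in 0 of 10 (median 0.25, 9.33 to 10.8 against 8.89 to 10.7). Over all genes 49.7% were lower.

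Markers of enteric nerve and glia, neuroendocrine, immune and mesothelial cells differed less. Enteric glia markers were lower in 2 of 3 (median -0.01, mean level 4.53 to 5.09 in treated against 4.55 to 5.33 in control tumours), with Sox10 at 6.63 ± 0.31 against 6.63 ± 0.42 and Foxd3 below the filter. Enteric neuron markers were lower in 5 of 7 (median -0.03, 4.67 to 5.45 against 4.71 to 5.40), and neuroendocrine markers in 5 of 5 (median -0.07, 4.68 to 5.74 against 4.88 to 5.66). Natural killer cell markers were lower in 3 of 4 (median -0.07, 4.88 to 5.60 against 4.81 to 5.94), with Ncr1 and Klrd1 below the filter. Macrophage markers were lower in 7 of 8 (median -0.07, 6.50 to 7.73 against 6.02 to 7.88), and mesothelial markers in 4 of 4 (median -0.09, 4.48 to 5.88 against 5.03 to 5.89), with Wt1 below the filter. The part of these cell types in the differences of the 5 genes was not tested.

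With the fibroblast score as a covariate, the treatment difference of Spsb4 was -0.60 (SE 0.14), against -0.59 without it. That of Olfml3 was -0.25 (SE 0.15), against -0.95. Ncam1 had -0.50 (SE 0.20) against -1.10, Nrep -0.55 (SE 0.25) against -0.89 and Fam20a -0.34 (SE 0.10) against -0.49. Col1a1 itself had -0.14 (SE 0.16) against -0.74. The 5 genes ranged from almost no shift with the score (Spsb4) to a small remaining difference (Olfml3). The contrasts between genes in this respect were not tested. The score itself was lower in treated tumours, by a difference of -0.60 and in all 5 lines. The genes were also picked by their correlation with Col1a1, so shifts with the score follow in part from the choice. The part of fibroblasts in each difference was not tested.

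**Figure D4:**
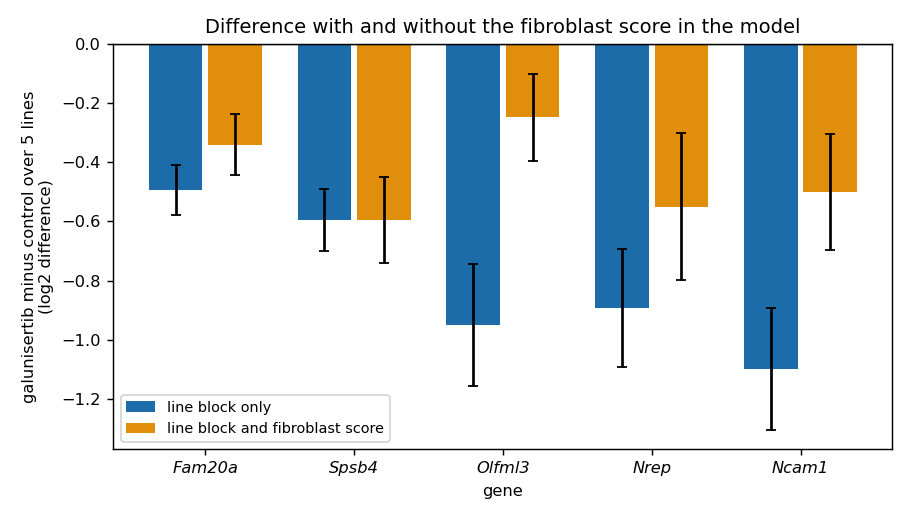
Treatment difference over 5 lines (galunisertib minus control, log2, vertical axis) for each gene, fitted with the line as a block (blue) and with the fibroblast score added (orange); error bars are SE of the limma fit. Spsb4 is at -0.59 and -0.60, and Olfml3 at -0.95 and -0.25.

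The deviation of a tumour from the mean of its own group, of which there were 10, uses neither the difference between arms nor that between lines. Over these 10 pairs, Olfml3 followed the fibroblast score with a Pearson r of 0.88, Ncam1 with 0.78, Fam20a with 0.57 and Nrep with 0.55, whereas Spsb4 had -0.18. This was not particular to fibroblasts. Olfml3 had 0.90 with the score of TGF-beta ligands and receptors, 0.84 with pericyte, 0.76 with endothelial and 0.74 with macrophage markers. Ncam1 had 0.80 with pericyte and 0.71 with endothelial markers. With smooth muscle markers r was 0.19 for Olfml3 and -0.02 for Ncam1. With Col1a1 the r of deviations was 0.82 for Olfml3, 0.74 for Ncam1, 0.68 for Fam20a, 0.42 for Nrep and 0.06 for Spsb4. Both tumours of a pair carry the same information with opposite sign, they share a strip and a line, and r over 10 points is given as a description. The widest pairs for both Olfml3 and Ncam1 were the controls of MTO68 and those of MTO54. For Olfml3 they had 8.98 and 7.49 in MTO68 and 9.99 and 8.47 in MTO54. For Ncam1 they had 8.31 and 6.84 in MTO68 and 9.02 and 7.74 in MTO54. The r of these genes rests largely on those pairs, and r without them was not computed. Olfml3 and Ncam1 had an r of 0.82 with each other, and Spsb4 had -0.22 with Olfml3, -0.27 with Ncam1, 0.04 with Nrep and 0.09 with Fam20a.

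Over the levels of all 20 tumours, which hold the treatment difference by which the genes were chosen, the Pearson r with Col1a1 was 0.83 for Ncam1, 0.81 for Olfml3, 0.73 for Fam20a, 0.55 for Spsb4 and 0.50 for Nrep. Spearman's rho was 0.81, 0.82, 0.72, 0.53 and 0.55 in the same order. Without the 2 tumours farthest from the Col1a1 median, r was 0.73, 0.74, 0.57, 0.32 and 0.67, so that of Spsb4 rested most on those tumours. For Spsb4 and Ncam1, r was 0.84 over 10 treated tumours, among which MTO68 was lowest for both, and -0.13 over 10 control tumours; the difference between arms was not tested.

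The genes most like each of the 5 were taken by the r of deviations, which for Olfml3 and Ncam1 rests largely on the control pairs of MTO68 and MTO54. Olfml3 had 33 genes with r above 0.9, led by P2rx7 (0.96), Fkbp7 (0.96), Spaca6 (0.95), Gpr146 (0.95) and Crip1 (0.94). Ncam1 had 7, led by Extl2 (0.96), Ier3 (0.96), Unc5b (0.94), Copz2 (0.94) and Bag3 (0.92). Fam20a had 2, the acute-phase genes Hp (0.92) and Saa3 (0.91), followed by Gda (0.85), Rapgef5 (0.84) and Dkk3 (0.84). Nrep had 2, Scara3 (0.91) and Map1lc3a (0.90), followed by Hps3 (0.89), Kif26b (0.87) and Arhgap35 (0.87). Spsb4 had none above 0.9 and was followed most closely by Snai3 (0.89), Crygn (0.87), Krtap5-1 (0.86), Tmc8 (0.83) and Tepp (0.80). The treatment differences of these 25 genes ran from -0.68 (SE 0.16) for Copz2 to 0.26 (SE 0.21) for Ier3. Fkbp7 was at -0.63 (SE 0.19) and Dkk3 at -0.59 (SE 0.16), while P2rx7 was at -0.06 (SE 0.07) and Extl2 at 0.00 (SE 0.13).

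By the r of levels over 20 tumours other genes came first, with matrix genes among them. Ncam1 was most like Aebp1 (0.93), a collagen-binding protein gene, Col6a2 (0.91), Meg3 (0.91), Plod2 (0.91) and Mmp23 (0.90). Olfml3 was most like Ak1 (0.93), the lysyl hydroxylase gene Plod2 (0.93), the elastin gene Eln (0.92), Ltbp2 (0.91) and Col5a1 (0.90). Fam20a was most like Aebp1 (0.88), Loxl1 (0.86), Ncam1 (0.85), Ak1 (0.85) and Fstl3 (0.84). Nrep was most like Kif26b (0.92), Pdgfrl (0.84), Tmx4 (0.84), Trim3 (0.84) and Slc9a3r2 (0.83), and Spsb4 most like Jph2 (0.90), Ptprn (0.88), Slco4a1 (0.87), Aqp9 (0.86) and Fam78b (0.86). Kif26b was in both lists of Nrep. Levels of tumours share the treatment and the lines, so a high r here is not independent of the rule.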

How the data were processed

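The authors deposited log2 levels per probe set of 1-colour arrays. Per the submitters' processing notes, RMA and affy made them, with no version stated in the sources used here. RMA normalizes at the probe level, but the deposited arrays did not share 1 distribution of probe set values (array SDs 1.46 to 1.83), and levels near background understate differences. Of 45141 probe sets, 28898 carried 1 gene symbol and 551 more than 1 by GEO's annotation of the platform, and 28689 matched a current symbol. Each of 17097 genes was represented by its probe set of highest mean. A gene was tested if 2 or more arrays exceeded 4.16, the 25th percentile of the values, which left 15556.

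Treatment was fitted in limma 3.58.1 (R 4.3.3, lmFit and trended eBayes) on 20 tumours with line as a block. Line levels came from a model of 10 group means with a shared spread, averaged over both arms. P-values are two-sided and were adjusted by Benjamini-Hochberg over 15556 genes at 0.05, and every adjusted p is limma's. Groups held 2 tumours, labelled as biological replicates, and no pair of arrays was identical. The number of arrays limits the precision, and the model was tested on simulated data. The simulated treatment effect was the same in every line. That run therefore does not show how the model behaves where effects vary between lines.

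The members and the 17 gene lists (159 genes, 142 measured, 133 tested) were chosen with earlier results of these data known. Named genes were the members, Col1a1, the 5 genes of highest r with each member by deviations and by levels, and list members that passed a comparison or else had the smallest p. Fam20c, Spsb2, Spsb3, Cul5, Eif3b over treatment, St8sia2, St8sia4 and Sox10 were named for their roles after their values were seen. Alternatives were filters on dim genes, other probe sets, quantile normalization, median subtraction, eBayes without trend, array weights, no line block, covariates, 1 arm alone, and leaving out each array and line. Plots were drawn with matplotlib 3.10.9.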

Additional observations from a re-analysis of the deposited data

Results flagged for a closer look

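The values of each gene were examined for single tumours far from the rest in 35 sets of tumours, the 10 of an arm or the 4 of a line. For separate sets of like tumours chance alone would mark about 1 in 20, and 2 were marked. These sets shared tumours and mixed arms or lines, so that rate is only a rough guide. Fam20a in MTO68 galunisertib replicate 1, at 5.00, was farther below the other 9 treated tumours than the criterion for 10 values allows. Olfml3 in MTO68 control replicate 1, at 8.98, was farther above the other 3 tumours of that line than the criterion for 4 values allows. The other control of the line, at 7.49, is the array that stood apart in its matrix score and array SD. Whether the array's own quality plays a part was not tested.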

How the results depend on the processing

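No paired analysis was possible because replicate numbers were given in accession order and join no tumours across groups.

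The count of genes called over treatment was 0 in the fit described and 55 (2 higher, 53 lower) after quantile normalization and 116 (25 higher, 91 lower) with array weights, and 0 to 43 without 1 array. The largest came without MTO68 control replicate 2 and 20 came without MTO54 control replicate 2. Array weights gave 1088 genes for MTO140, 4400 for MTO207 and 3381 for MTO68 against MTO93, where the fit described gave 2095, 1233 and 5192. Control tumours alone gave 27 genes over 5 lines, 20 for MTO140, 25 for MTO54, 3 for MTO207 and 11 for MTO68 against MTO93; these fits had fewer samples. Without 1 array the counts were 602 to 5927 for MTO140, 253 to 1541 for MTO54, 115 to 7165 for MTO207, 1927 to 9094 for MTO68 against MTO93 and 6352 to 11225 over 5 lines. Quantile normalization changed the split of higher and lower calls to 579 and 803 for MTO207, where the main split was 341 and 892. The cause of these shifts was not tested.

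The 5 genes were lower over 5 lines under every alternative run. Reversed were single lines in dim probe sets of Ncam1: 1421966_PM_at at 0.0362 in MTO93 and 0.163 in MTO54, and 1425126_PM_at at 0.0179 in MTO54. With quantile normalization, line differences lost their call for Spsb4 in MTO54 (adjusted p = 0.0591) and Nrep in MTO68 against MTO93 (0.0594), and passed for Nrep in MTO140 (-0.84, 0.0131), Ncam1 in MTO68 against MTO93 (0.0249) and Ncam1 over 5 lines (0.0216). With array weights, Spsb4 in MTO54 (0.0849), Nrep in MTO68 against MTO93 (0.0692) and Nrep over 5 lines (0.062) lost theirs. With no filter on dim genes, Spsb4 in MTO54 did too. With the fibroblast score, Olfml3 (0.0291) and Ncam1 (0.0451) over 5 lines, Nrep in MTO140 (0.0294) and MTO207 (0.0164) and Ncam1 in MTO68 against MTO93 (0.02) passed. Dim probe sets limit what can be said of Ncam1, as does probe set 1450438_PM_at, which was above the floor on 20 arrays and differed by only -0.28.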
